A study of Mus musculus with 9 samples.

Results

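UBTF at the starts of protein-coding genes was compared between premalignant and wild type B cell precursors. A gene was counted as held by a library when a UBTF summit lay within 1 kb of its start, among the best 75000 peaks of that library outside rDNA. Of 22380 protein-coding genes, 79 were held by both premalignant libraries and by neither wild type library, and 737 were held by both wild type libraries and by neither premalignant library. These are called premalignant-only and wild-type-only genes here. The comparison used 4 of the 9 samples of the series, and both malignant libraries, which took no part in choosing the genes, are given beside it.

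The cells were pre-B cells sorted from bone marrow of C57BL/6 mice by high B220, low IgM and low IgD. Premalignant cells came from mice heterozygous for Eμ-Myc, a transgene in which an immunoglobulin heavy chain enhancer drives Myc in B cells, and wild type cells came from littermates without it. Both groups were female mice of 4 to 6 weeks, with no transgene or treatment in common. Malignant cells came from Eμ-Myc mice of both sexes with spontaneous lymphoma at 10 to 20 weeks. Each stage has 2 UBTF ChIP-seq libraries (WT1 and WT2, PreM1 and PreM2, Mal1 and Mal2), described in the study's methods as biological replicates, and 3 input samples of the series were not analysed here. The gate holds progenitor as well as precursor B cells, so a shift in their proportions and a change of UBTF in one cell type cannot be told apart. The Myc transgene carries Myc sequence, and reads from it cannot be told apart from those of the native gene. The question addressed is whether UBTF sits at different genes before any lymphoma has formed.

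UBTF binds along the ribosomal RNA genes, keeps their chromatin open and bends the DNA for transcription by RNA polymerase I. It has also been found at genes read by RNA polymerase II, often near their starts, and at histone gene clusters. MYC is a transcription factor of cell growth that raises ribosome production in B cells.

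The sequence under the summits of 6 genes shows 2 kinds of site, CG-rich and repeat. The repeat kind is the rarer one among wild-type-only genes, of which 573 of 737 (77.7%) had a repeat under neither wild type summit, with a median GC content of 72.6% there. Given are 201 bp around the summit in the first library of the stage (PreM1 for Eid2, Ikzf1 and Rev1, WT1 for the rest), from NCBIM37, which is mm9, printed 5′ to 3′ on the strand of the gene. Capitals mark CG dinucleotides in Eid2, Ikzf1 and Rev1, and the longest tandem repeat in Slitrk3, Fyb and Fut7. Eid2 and Ikzf1 are the best-ranked premalignant-only genes, Rev1 is one with its summit upstream of the gene, and Slitrk3, Fyb and Fut7 are among the best-ranked wild-type-only genes.
Eid2, chr7:29053069-29053269, plus strand: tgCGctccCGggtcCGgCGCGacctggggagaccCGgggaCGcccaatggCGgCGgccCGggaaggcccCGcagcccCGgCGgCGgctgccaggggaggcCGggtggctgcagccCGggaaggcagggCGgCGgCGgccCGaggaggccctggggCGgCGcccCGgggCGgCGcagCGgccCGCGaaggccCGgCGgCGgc
Ikzf1, chr11:11585417-11585617, plus strand: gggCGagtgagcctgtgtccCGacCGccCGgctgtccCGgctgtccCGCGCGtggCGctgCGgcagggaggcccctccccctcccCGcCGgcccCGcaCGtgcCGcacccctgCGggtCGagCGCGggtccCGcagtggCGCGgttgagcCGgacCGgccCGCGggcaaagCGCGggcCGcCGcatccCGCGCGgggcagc
Rev1, chr1:38186770-38186970, minus strand: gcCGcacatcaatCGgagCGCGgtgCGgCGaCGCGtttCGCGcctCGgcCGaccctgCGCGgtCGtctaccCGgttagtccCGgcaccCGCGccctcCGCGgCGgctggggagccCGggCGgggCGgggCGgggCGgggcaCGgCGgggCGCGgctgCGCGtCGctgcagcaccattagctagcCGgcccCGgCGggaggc
Slitrk3, chr3:72861722-72861922, minus strand: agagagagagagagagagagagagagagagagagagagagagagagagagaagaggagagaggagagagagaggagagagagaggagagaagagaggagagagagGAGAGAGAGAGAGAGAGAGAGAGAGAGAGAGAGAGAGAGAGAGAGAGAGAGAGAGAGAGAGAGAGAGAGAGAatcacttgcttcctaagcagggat
Fyb, chr15:6528852-6529052, plus strand: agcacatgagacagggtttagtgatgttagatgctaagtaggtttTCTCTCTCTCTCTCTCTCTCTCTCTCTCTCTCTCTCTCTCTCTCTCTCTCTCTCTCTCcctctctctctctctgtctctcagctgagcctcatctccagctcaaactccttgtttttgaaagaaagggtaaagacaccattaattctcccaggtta
Fut7, chr2:25277736-25277936, plus strand: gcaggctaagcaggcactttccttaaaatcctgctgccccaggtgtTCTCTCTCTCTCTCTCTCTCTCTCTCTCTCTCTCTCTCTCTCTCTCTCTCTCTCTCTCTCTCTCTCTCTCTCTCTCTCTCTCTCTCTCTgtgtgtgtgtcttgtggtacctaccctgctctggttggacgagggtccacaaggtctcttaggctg

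In GENCODE M1, the Eid2 summit lies in the coding exon of that gene and the Ikzf1 summit in an intron. Those of Rev1, Slitrk3, Fyb and Fut7 lie upstream of the gene and outside any annotated one. The Eid2, Ikzf1 and Rev1 windows hold 31, 33 and 37 CG dinucleotides at a GC content of 85.6%, 82.1% and 80.1%. The Slitrk3, Fyb and Fut7 windows hold 0, 0 and 1 CG and perfect repeats of 72, 58 and 89 bp with a 2-bp unit.

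The libraries differed in ways that the stages do not explain, and PreM2 stood apart. The narrowest peaks were 240 bp wide in WT1, 250 bp in WT2 and 260 bp in PreM1 but 680 bp in PreM2. The median width of the peaks used was 2.02 and 2.07 kb in wild type, 2.01 kb in PreM1 and 6.53 kb in PreM2. In PreM2, 62.5% of the peaks used shared their region with another summit, against 13.5% to 22.7% in the other 3. The lists held between 78113 and 575674 peaks. Peak lists give no read counts, so the depth behind them is unknown and presence below a rank is no measure of occupancy. The main comparisons are therefore given with PreM1 apart from PreM2. Where a gene is said to have no summit in a list, full lists included, this refers to 1 kb around its start unless the whole gene is named.

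The difference between stages in the number of genes held was not larger than the spread between libraries, and PreM2 was the lowest. WT1 held 4978 genes (22.2%), WT2 3873 (17.3%), PreM1 4181 (18.7%) and PreM2 1411 (6.30%). PreM1 thus lay between both wild type libraries and PreM2 below all, an order that turned with the number of peaks used. With the best 20000 and 40000 peaks PreM1 was the highest (4.11% and 10.2%), and with full lists the lowest (19.3%, against 28.2% in PreM2). PreM1 also came below WT2 with the best summit of each region (18.7% and 20.1%) or with region overlap in place of the summit (21.4% and 21.7%). The mean was 19.8% ± 3.49 (SD, n = 2) in wild type and 12.5% ± 8.75 (SD, n = 2) in premalignant cells. The difference of -7.28 percentage points had p = 0.667 in a two-sided exact permutation test, whose smallest possible p with 2 libraries against 2 is 0.333. PreM1 alone lay 1.09 percentage points under the wild type mean (difference -1.09), and PreM2 alone -13.5 from it. The median distance of the summit from the gene start was 207 and 242 bp in wild type and 237 and 223 bp in premalignant cells. Summits lay downstream of the start at 58.0% and 56.9% of the genes held in wild type, 61.3% in PreM1 and 68.0% in PreM2. Both premalignant shares were above both wild type shares, and PreM2 stood furthest off. Among premalignant-only genes the downstream shares were 75.9% and 79.7% in PreM1 and PreM2, and among wild-type-only genes 55.8% and 56.7% in WT1 and WT2.

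Most genes held by several libraries crossed the stages. All 4 libraries held 601 genes, any 3 held 1619, and 1192 were held by exactly 1 library of each stage. The 79 premalignant-only genes were 0.353% of protein-coding genes and 9.52% of the 830 genes in both premalignant lists. Wild-type-only genes were 3.29% of protein-coding genes and 26.3% of the 2807 genes in both wild type lists. Both sets are fixed by the choice of libraries. Without PreM2, 1067 genes were held by PreM1 and neither wild type library, and 870 by both wild type libraries and not by PreM1. Without PreM1, these counts were 362 and 2073. Which set was the larger thus turned on PreM2.

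**Figure D1:**
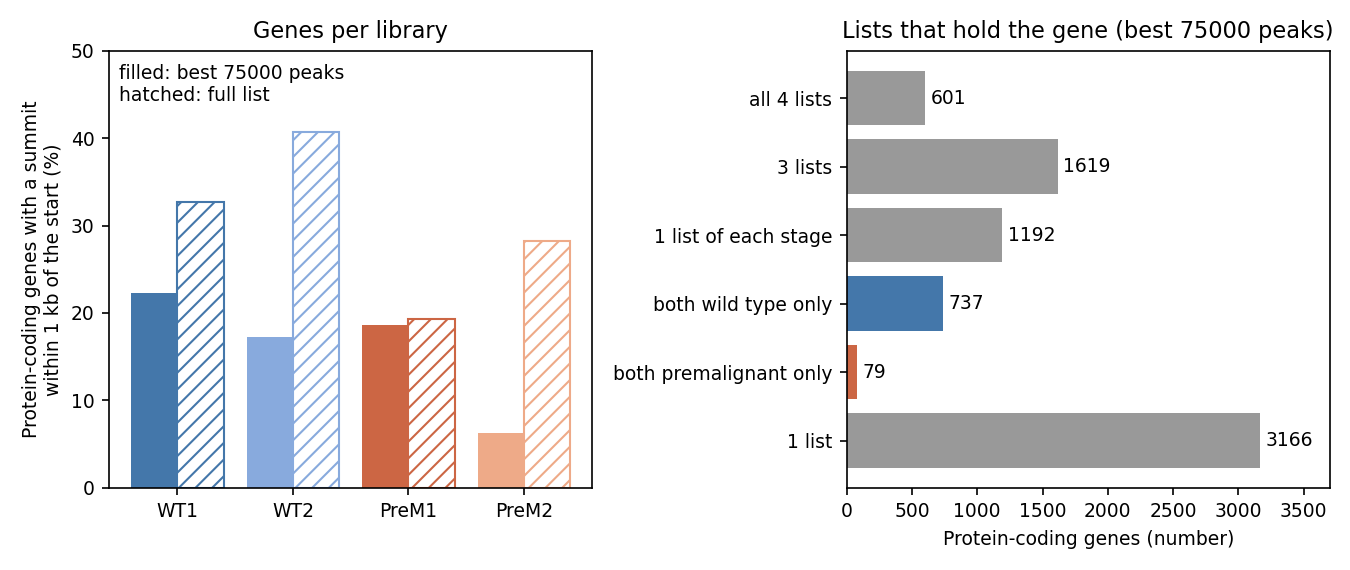
Left, percent of protein-coding genes (y axis) with a summit within 1 kb of the start in WT1, WT2, PreM1 and PreM2, from the best 75000 peaks (filled bars) and the full list (hatched bars). Right, number of genes (x axis) by the lists that hold them. PreM1 (18.7%) lies between WT2 (17.3%) and WT1 (22.2%), PreM2 (6.30%) lies below all, and the bar of the 79 premalignant-only genes is the shortest of the 6 drawn.

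Premalignant-only genes included a regulator of lymphocyte development, ion channels and cytoskeletal genes. Their ranks (1 being the peak of highest score in the list) were moderate. The larger of the 2 premalignant ranks ran from 19462 to 74965 with a median of 53283, and for 17 of the 79 it was within 40000. Of the 79, 61 (77.2%) had a summit lower down in the full WT2 list and 31 (39.2%) in the full WT1 list. Only 15 had none in either full wild type list. The full wild type lists run deeper than 75000, so for most of these genes the contrast is one of rank and not of presence.

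Eid2, which encodes an inhibitor of EP300-dependent transcription and of differentiation, headed the set. Its summits ranked 19462 in PreM1 and 18103 in PreM2, 269 and 283 bp downstream of the start, and neither full wild type list had one within 1 kb. Ikzf1 was the next, at 21077 in PreM1 and 12166 in PreM2. It encodes Ikaros, a zinc finger factor needed for lymphoid development and a tumour suppressor in B cell leukaemia. Within 1 kb of the Ikzf1 start neither full wild type list had a summit, while Mal1 and Mal2 had one at ranks 52820 and 12330. Further inside the gene the wild type lists did have summits, the best at ranks 1570 in WT1 and 1627 in WT2, both 60.7 kb downstream of the start. PreM1 had one there too, at rank 1257, so UBTF was listed in Ikzf1 at both stages. In PreM2 no summit of the gene but the one near its start was in the best 75000. PreM2 thus differed from wild type further inside the gene as well. Each wild type list had 4 summits in Ikzf1, and whether any lay just past 1 kb was not tested. The PreM1 summit lay 511 bp and the PreM2 summit 989 bp downstream of the start, the latter at the edge of the window. The premalignant libraries thus did not mark the same position. Ikzf1 was the only premalignant-only gene among all 13 gene lists described here.

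The other 13 of the best 15 genes all had a summit in the full WT2 list. Kcnd3, a voltage-gated potassium channel gene, ranked 25353 in PreM1 and 4103 in PreM2, but 82125 in WT1 and 77184 in WT2, just past the limit. Kcnh1, another potassium channel gene, ranked 38091 and 32501 in premalignant cells and 104088 and 94201 in wild type. Rev1, which encodes a scaffold of translesion DNA synthesis, ranked 32784 and 27339 against 77445 and 83052. For Kcnd3 and Rev1 the wild type ranks thus lay not far past the limit of 75000. Among these 13, Tusc1 and Spnb1, the beta-spectrin gene of red blood cells, also had lower summits in both full wild type lists. Tmem170b, Zyg11a, Atp11a, Plxnd1, Tmem42, Ttbk1, Actn1 and Igf2bp2 had one in WT2 and none in WT1. Atp11a encodes a phospholipid flippase, Plxnd1 a semaphorin receptor, Actn1 an actin cross-linking protein and Igf2bp2 an mRNA-binding protein. Their WT2 ranks lay between 76307 for Tmem42 and 109171 for Plxnd1. At the limit, Mmp17 (74582) and Ifi204 (74965) were just inside, and Foxf2 (75074) and Runx1t1 (75323) just outside.

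The malignant libraries, which did not choose these genes, differed from each other at them. Of the 79, Mal2 held 49 (62.0%) and Mal1 held 17 (21.5%), where they held 11.1% and 16.0% of all protein-coding genes. Among genes in both premalignant lists whatever their wild type state, Mal2 held 69.8% and Mal1 65.8%. For the 283 genes held by PreM2 alone of the 4 libraries Mal2 held 150 and Mal1 52. For the 988 held by PreM1 alone they held 95 and 228. PreM2 and Mal2 were also alike in the number of peaks listed (575674 and 563265, against 279068 in Mal1) and in their narrowest peak (680 and 670 bp, against 800 bp in Mal1). The part of that likeness in these shares was not tested.

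Wild-type-only genes included neuronal, secreted and blood cell genes. By the larger of both ranks of a gene, the best of them stood above any premalignant-only gene. The larger of their wild type ranks ran from 4242 to 74977 with a median of 57714. PreM1 had a summit lower in its full list at 34 of the 737 genes (4.61%) and PreM2 at 392 (53.2%), while 328 had none in either. The PreM1 list ends at 78074 peaks outside rDNA, so it can hold few summits past rank 75000. Several genes share a summit, and the 737 genes rest on 673 summits.

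Slitrk3, a neuronal gene for a synaptic membrane protein, headed the set with ranks 3194 in WT1 and 4242 in WT2, no summit in PreM1 and rank 279600 in PreM2. Its summits lay upstream, at -957 and -974 bp from the start. Serpina1b, of the alpha-1-antitrypsin family, ranked 8831 and 9267, and Defb8, a beta-defensin gene, 14716 and 3902. Several genes of blood cells followed. Fyb, which encodes an adaptor of immune cell signalling, ranked 6659 in WT1 and 16231 in WT2 and had no summit in either full premalignant list. Fut7, whose enzyme makes selectin ligands on leukocytes, ranked 17557 and 14273 and was also absent from both. Ccr2, a chemokine receptor gene of monocytes, ranked 19244 and 16001 in wild type, with no PreM1 summit and rank 117652 in PreM2. Sp100, a nuclear body protein gene, Olfr121, an olfactory receptor gene, and Sema6c, a semaphorin gene, were the other members of the best 15 with no summit in either full premalignant list. Echdc2, Gm4955, Edil3, Etl4, Rab2a and Fam71f1 had a PreM2 summit, from rank 81276 for Rab2a to 471519 for Edil3. PreM1 listed none of the best 15 at any rank. Just inside the limit were Hddc2 (74905) and Gfod2 (74977), and just outside it Kctd1 (75007) and Vmn1r46 (75013).

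**Figure D2:**
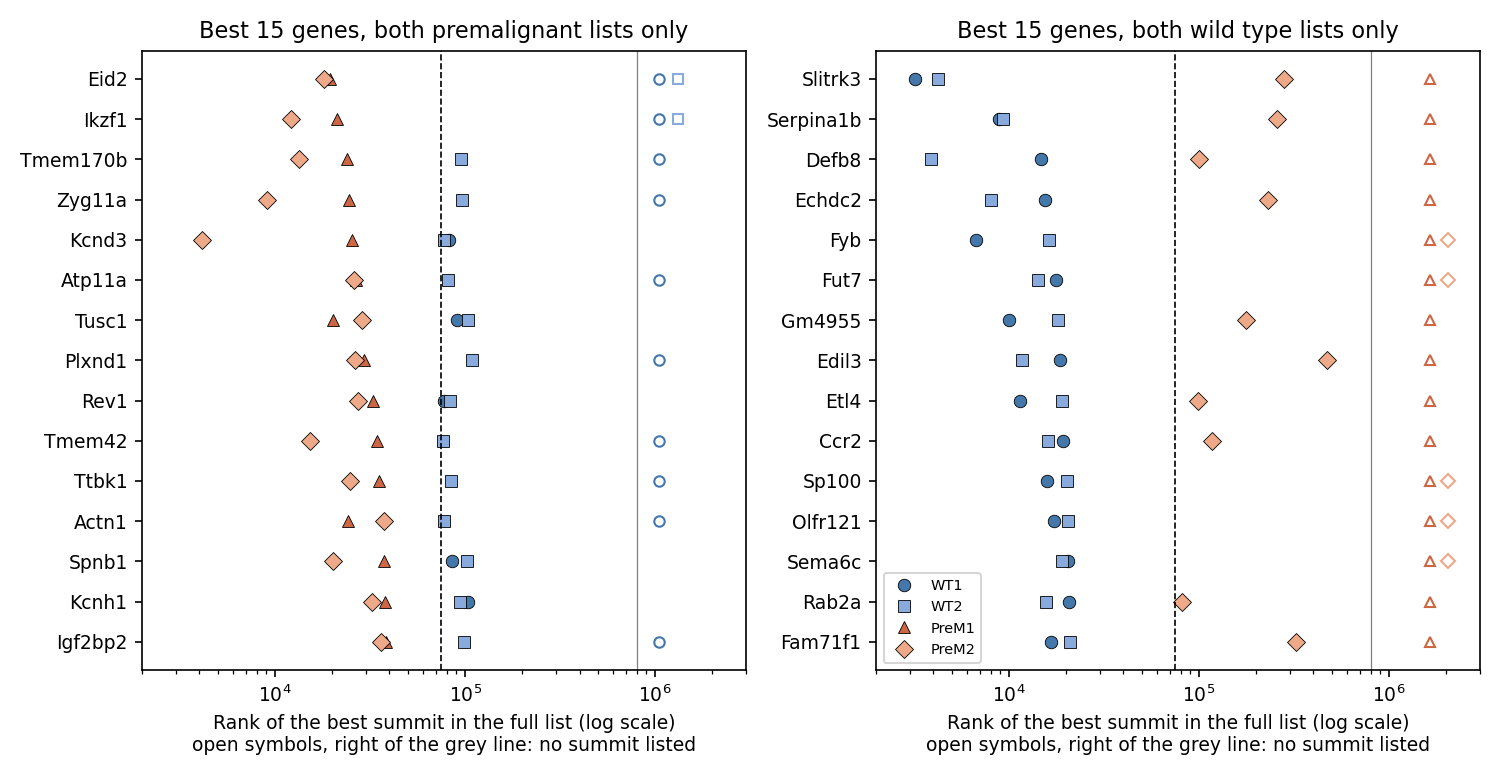
Rank of the best summit within 1 kb of the start (x axis, log scale) in WT1, WT2, PreM1 and PreM2 for the 15 best genes (y axis) of each set. The dashed line is rank 75000, and open symbols right of the grey line stand for no summit in the full list. On the left, 13 genes have a WT2 symbol just past the dashed line, and on the right PreM1 has no summit at any of the 15 genes.

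The summits of both wild type libraries lay close together at many wild-type-only genes. The summits of WT1 and WT2 lay a median of 49 bp apart over the 737 genes, and those of PreM1 and PreM2 169 bp apart over the 79. The wild type median was 7 bp for 156 genes with a repeat under both summits and 76 bp for 573 with a repeat under neither. At some genes they lay further apart, as at Utp18 (-585 and 529 bp from the start) and Foxo1 (78 and 889 bp). In Mal1, 262 wild-type-only genes (35.5%) had a summit and in Mal2 153 (20.8%), and 393 had none in either. The background over all protein-coding genes was 16.0% and 11.1%, and over genes in both wild type lists 57.9% and 39.8%.

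Tandem repeats lay under many of the wild-type-only summits and under few of the premalignant-only ones. A repeat was counted when perfect, of at least 40 bp, with a unit of 1 to 6 bp, in the 201 bp around the summit. It was present at 157 of 737 wild-type-only genes in WT1 (21.3%) and 163 in WT2 (22.1%). Of the 2807 genes in both wild type lists, from which this set was drawn, 512 had such a repeat at the WT1 summit. Over all genes of each list the share was 13.6% in WT1, 18.4% in WT2, 12.5% in PreM1 and 4.54% in PreM2. At the premalignant-only genes it was 2 of 79 (2.53%), namely Ifi204 and Gm10506, which were named for this count. Of the 157 repeats in WT1, 103 were AG/CT and 47 AC/GT. Among the best 15 wild-type-only genes 11 had a repeat, all AG/CT, and Defb8, Echdc2, Sema6c and Rab2a had none.

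PreM1 alone held genes with and without a repeat in close shares. Of genes in both wild type lists, 512 had a repeat at the WT1 summit and 2295 had none. PreM1 held 348 of the first (68.0%) and 1589 of the second (69.2%), and PreM2 held 70 (13.7%) and 664 (28.9%). Mal1 held 37.5% and 62.4%, and Mal2 22.5% and 43.6%. The repeat genes were thus held less in PreM2 and both malignant lists, those with the wide narrowest peaks (670 to 800 bp), and about as often in PreM1. The stage and this property of the lists cannot be told apart for the malignant libraries. Repeats of this kind occur many times in the genome, and the part of read mapping in these shares was not tested.

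**Figure D3:**
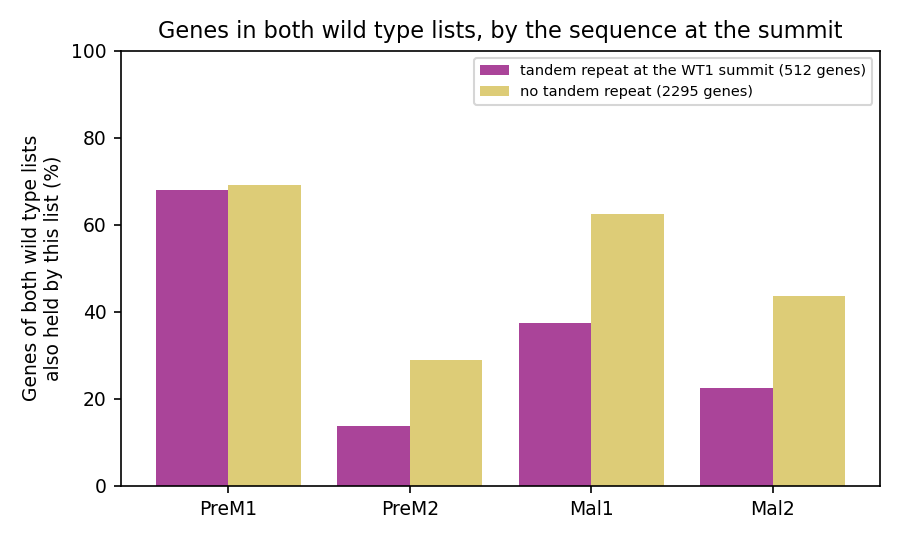
Percent of genes of both wild type lists (y axis) that PreM1, PreM2, Mal1 and Mal2 (x axis) also held, for 512 genes with a tandem repeat at the WT1 summit and 2295 genes without. In PreM1 both bars stand at 68.0% and 69.2%, and in the other lists the bar of genes without a repeat is the higher.

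The starts of both sets, each taken as a whole, were rich in CG. The starts of genes with repeats were not measured apart. The median GC content of 301 bp around the start was 73.1% for premalignant-only and 66.8% for wild-type-only genes, against 58.1% for all protein-coding genes and 54.2% for genes in none of the lists. The order of both sets turned without PreM2: the 1067 genes of PreM1 in neither wild type list had a median GC content of 65.4%, under the 67.8% of PreM1 as a whole, and the 870 genes in both wild type lists and not in PreM1 had 68.1%. Starts with a GC content over 50% and an observed over expected CpG ratio over 0.6, as in CpG islands, were 84.8% of premalignant-only, 75.2% of wild-type-only and 48.0% of all genes. For PreM1 alone against wild type they were 79.2%, and 77.4% in the other direction. Genes in all 4 lists were also of this kind (87.5%, median GC 73.4%), as were those of PreM2 as a whole (83.8%, median GC 73.1%). CACGTG, the E-box to which MYC and MAX bind, reads the same on either strand. It was found within 1001 bp around the start in 19 of 79 premalignant-only genes (24.1%), 16.3% of wild-type-only genes and 17.0% of all genes. Over all genes held by PreM1 and by WT1 the share was 19.4% and 19.3%, and over the genes of PreM1 in neither wild type list 19.4%.

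PreM1 was then set against each wild type library apart. PreM1 and WT1 shared 2733 genes (Jaccard index, shared over all held by either, 0.425), PreM1 and WT2 shared 2318 (0.404), and WT1 and WT2 shared 2807 (0.464). PreM1 held 1448 genes that WT1 did not (6.47% of protein-coding genes), and WT1 held 2245 that PreM1 did not (10.0%). Against WT2 the counts were 1863 (8.32%) and 1555 (6.95%). Both directions were of the size seen between the wild type libraries, where WT1 held 2171 genes that WT2 did not (9.70%) and WT2 held 1066 that WT1 did not (4.76%). With 1 library a side no test could be made. PreM1 and PreM2, which share a stage, shared 830 genes, a Jaccard index of 0.174, and PreM2 shared as little with WT1 (0.165) and WT2 (0.199).

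**Figure D4:**
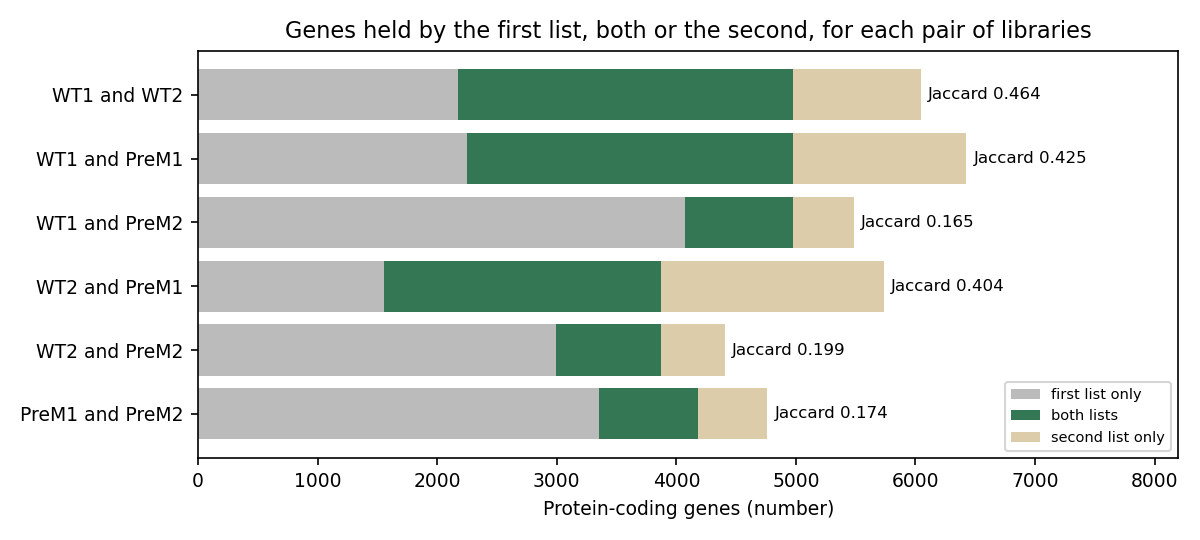
Number of protein-coding genes (x axis) held by the first list alone, both, or the second alone, for the 6 pairs of WT1, WT2, PreM1 and PreM2 (y axis), with the Jaccard index. Pairs without PreM2 lie between 0.404 and 0.464 and pairs with it between 0.165 and 0.199.

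Many PreM1 genes missing from a wild type list were found further down it. Of the 1448 genes of PreM1 and not WT1, 585 (40.4%) had a summit in the rest of the WT1 list, and of the 1863 not in WT2, 1291 (69.3%) had one in the rest of WT2. By PreM1 rank, Myc came after Dok1 and Loxl3 in the first set and headed the second, with a PreM1 summit of rank 6196, 49 bp downstream of its start. WT1 listed no summit within 1 kb and WT2 one at 109507, and Mal1 had one at 1380, while PreM2 and Mal2 listed none. Within the gene as a whole every list but PreM2 had a summit. The best ranked 28225 in WT1, 7817 in WT2, 4003 in PreM1, 310 in Mal1 and 196289 in Mal2. In WT2 it lay 1075 bp downstream of the start, just past the window, and in WT1 1717 bp and PreM1 1672 bp. The wild type lists thus also had UBTF summits inside Myc, with better ranks in PreM1 and Mal1.

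Dok1, an adaptor of immune receptor signalling, and its neighbour Loxl3 share the PreM1 summit of rank 5902, which WT2 had at 26449 and WT1 only at 90254. Acss2 and Ggt7, also neighbours, share a PreM1 summit of rank 8171, against 76132 and 94049 in wild type. Pkm2, the pyruvate kinase of proliferating cells, ranked 10212 in PreM1, 97143 in WT1 and 85730 in WT2. The other leading genes of PreM1 against WT1, 9030425E11Rik and Epb4.1l3, were held by WT2 at 41469 and 27373. Against WT2 the leaders after Myc were Lbx1, Rasa1, Fgfr2, Gm5069 and Itpkb (neighbours with one summit), Ppp1r2 and Chd9. WT1 held all of them, at ranks from 16695 for Rasa1 to 56246 for Chd9. Of the genes that lead PreM1 over one wild type library, Myc, Acss2, Ggt7 and Pkm2 were thus missing from the best 75000 of both.

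In the other direction, Ebf1, which encodes a factor that specifies the B lineage, ranked 3330 in WT1 with a summit 988 bp downstream of the start, at the edge of the window. No other list had a summit within 1 kb. PreM1 had one of rank 2838 at 1.08 kb, and Mal1 one of rank 2759 at 1.18 kb, so the window alone set PreM1 apart from WT1 here. WT2 and PreM2 had their best Ebf1 summits inside the gene, at ranks 7159 and 1840. Slitrk3, Fyb and Serpina1b led WT1 over PreM1 as well, with Zp1, Myo1d, Cd209f and Trps1. Slitrk3, Defb8, Echdc2, Serpina1b and Zp1 also led WT2 over PreM1, with Ak5, Agxt2 and Cd5. Zp1, an egg coat gene, ranked 5563 in WT1, 10676 in WT2 and 66839 in PreM2, and of the 4 lists only PreM1 lacked it. Ak5 ranked 6053 in WT2 and 113247 in WT1.

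Replication-dependent histone genes, which supply histones for newly made DNA, were the most often held of all 13 gene lists in WT1, WT2 and PreM1. WT1 held 51 of 67 (76.1%), WT2 48 (71.6%) and PreM1 55 (82.1%), while PreM2 held none in its best 75000 peaks and 12 in its full list, the best at 154886. Mal1 held 50 and Mal2 none. In the 45 histone genes held by WT1, WT2 and PreM1 the median ranks were 15994, 15015 and 4725. PreM1 ranked the gene above both wild type libraries at 41 of these 45 (91.1%), against 859 of 1937 (44.3%) of all genes in the 3 lists. Neighbouring histone genes share summits. Over distinct PreM1 summits the count was 29 of 32 (90.6%), against 788 of 1789 (44.0%). Hist1h2an, for example, ranked 18209 in WT1, 9923 in WT2 and 2066 in PreM1, and Hist1h1c, a linker histone gene, 8685, 13860 and 5568. These examples were chosen after their values were seen. The copies of a histone gene are close to identical, and reads that fit several of them are uncertain in place.

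**Figure D5:**
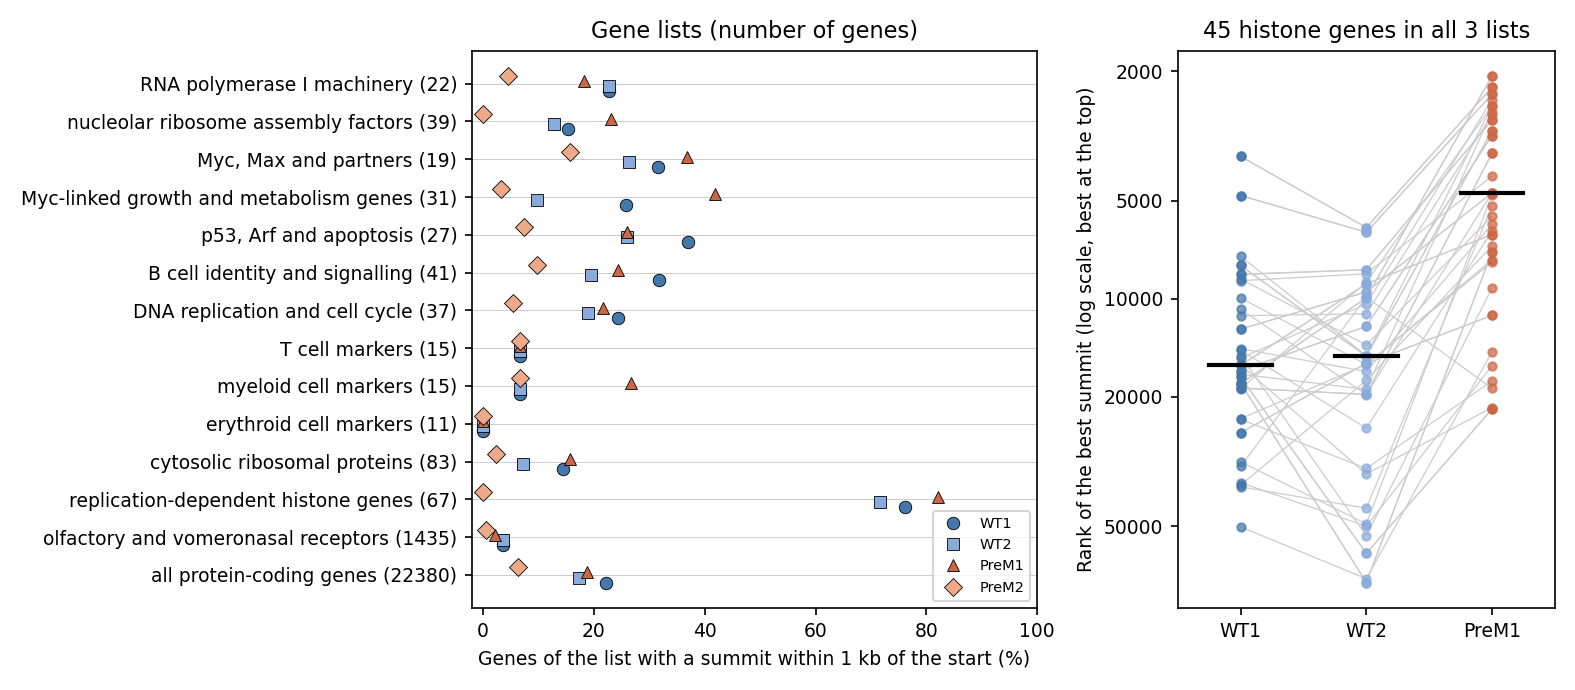
Left, percent of the genes of each list (y axis, number of genes in brackets) with a summit within 1 kb of the start (x axis) in WT1, WT2, PreM1 and PreM2. Right, rank of the best summit (log scale, best at the top) of the 45 histone genes in WT1, WT2 and PreM1, with lines joining a gene and black bars at the medians 15994, 15015 and 4725.

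Genes linked to growth and to the ribosome had their highest counts in PreM1 in 3 of the 4 lists, and their lowest in PreM2 in all 4. Of 31 genes of growth and metabolism that are known MYC targets, WT1 held 8 (25.8%), WT2 3 (9.68%), PreM1 13 (41.9%) and PreM2 1 (3.23%). Over all protein-coding genes the shares in the same order were 22.2%, 17.3%, 18.7% and 6.30%, the background for every list given here. No gene of this list was in either set. PreM1 held all 8 of the WT1 genes and all 3 of the WT2 genes. Apart from Pkm2, the genes added included E2f1, a cell cycle regulator, at 30882 in PreM1, 110450 in WT1 and 91774 in WT2. Another was Pa2g4, a growth regulator, at 17253 in PreM1, none in WT1 and 148989 in WT2, and Tert, the telomerase gene, at 54069 in PreM1 and in no other list within 1 kb. E2f1, Pa2g4 and Tert were chosen after their values were seen. The share between both wild type libraries differed as well, by 5 genes of 31.

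Among 39 nucleolar assembly factors of the ribosome, WT1 held 6, WT2 5, PreM1 9 and PreM2 none (15.4%, 12.8%, 23.1% and 0%), and Utp18 was wild-type-only, 2.56% of the list against 3.29% of all genes. Its summits ranked 69784 and 37023 in wild type and 75984 and 75587 in premalignant cells, just past the limit. Fbl and Ncl, for fibrillarin and nucleolin, were in PreM1 at 52131 and 55158 and in neither wild type list within 75000; both were picked after their values were seen. Among 83 cytosolic ribosomal protein genes the counts were 12, 6, 13 and 2 (14.5%, 7.23%, 15.7% and 2.41%), each share below that of all genes. Rpl24 alone (1.20%) was wild-type-only, at 60859 and 68944. The 22 genes of RNA polymerase I machinery were held at 5, 5, 4 and 1 (22.7%, 22.7%, 18.2% and 4.55%), near the shares of all genes. Baz2a, of a complex that silences ribosomal RNA genes, and Polr1d, a polymerase subunit, were wild-type-only at 51774 and 64478, and at 15109 and 69846. These 2 genes were 9.09% of the list, against 3.29% of all genes. Ubtf itself, named after its values were seen, was in all 4 lists at 20001 and 12927 in wild type and 7619 and 1905 in premalignant cells. Both premalignant ranks at Ubtf were better than both wild type ranks.

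B cell genes were on both sides. Of 41 genes of B cell identity and signalling, WT1 held 13 (31.7%), WT2 8 (19.5%), PreM1 10 (24.4%) and PreM2 4 (9.76%), against 22.2%, 17.3%, 18.7% and 6.30% of all genes. Besides Ikzf1 in the premalignant-only set, the wild-type-only set held Foxo1, Vpreb1 and Lyn. These are 2.44% and 7.32% of the list, where all genes gave 0.353% and 3.29%, a difference of 1 or 2 genes. Foxo1, a factor of early B cell genes, ranked 56465 and 54338 in wild type, with none in PreM1 and 87560 in PreM2. Vpreb1, for the surrogate light chain of the pre-B cell receptor, ranked 38223 and 59357, and Lyn, a kinase of receptor signalling, 63451 and 70965. Neither had a summit in a full premalignant list. Bcl6, Bach2, Tcf3 and Ikzf3 were held by several libraries of both stages. Bcl6 ranked 2369 and 3569 in wild type and 18914 and 33122 in premalignant cells. Bcl6 was picked after its values were seen.

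Of 19 genes of MYC, MAX and their partners, WT1 held 6, WT2 5, PreM1 7 and PreM2 3 (31.6%, 26.3%, 36.8% and 15.8%), all above the 22.2%, 17.3%, 18.7% and 6.30% of all genes. Mxd3, a MAX partner that opposes MYC, was wild-type-only at 28564 and 54470, 5.26% of the list against 3.29% of all genes. Of 27 genes of p53, Arf and apoptosis the counts were 10, 7, 7 and 2 (37.0%, 25.9%, 25.9% and 7.41%). The survival genes Bcl2l1 (25879 and 52548) and Mcl1 (53022 and 63664) were wild-type-only, 7.41% of the list against 3.29% of all genes. Within 1 kb Bcl2l1 had no premalignant summit at any rank, and Mcl1 one at 223719 in PreM2. Of 37 genes of DNA replication and the cell cycle the counts were 9, 7, 8 and 2 (24.3%, 18.9%, 21.6% and 5.41%), near those of all genes. Pold1, a DNA polymerase subunit, was wild-type-only at 24373 and 72222, 2.70% of the list against 3.29% of all genes.

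Lists of receptor genes and of markers of other blood cells were also counted. Of 1435 olfactory and vomeronasal receptor genes, WT1 and WT2 held 52 each (3.62%), PreM1 31 (2.16%) and PreM2 7 (0.488%). Of these, 14 (0.976%) were wild-type-only, a share below the 3.29% of all genes, and 12 of the 14 had a repeat at the WT1 summit. The best-ranked of the 14 were Olfr121, Olfr1337, Olfr464, Olfr54, Vmn2r23, Olfr224, Olfr328, Olfr685, Olfr486, Vmn2r62, Olfr331 and Olfr994, of which Vmn2r23 and Olfr331 had no repeat. None of the 11 erythroid marker genes was held by any of the 4 libraries. Of 15 T cell markers each library held 1, and Cd5, which B cells of some kinds also carry, was wild-type-only at 49414 and 8967 on a repeat of 71 bp. Cd5 was 6.67% of that list, against 3.29% of all genes.

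Of 15 myeloid markers WT1, WT2 and PreM2 held 1 (6.67%) and PreM1 held 4 (26.7%), namely Fcgr3, S100a9, Prtn3 and Cebpa. Over all genes the shares were 22.2%, 17.3%, 18.7% and 6.30% in WT1, WT2, PreM1 and PreM2. Fcgr3 was held by all 4, at 20729 in WT1, 18738 in WT2, 22359 in PreM1 and 436 in PreM2. Ranks of S100a9, Prtn3 and Cebpa in PreM1 were 14505, 32963 and 72533, and Mpo, Elane, Lyz2 and Itgam had none within the best 75000 of any of the 4. The S100a9 summit lay 974 bp and the Cebpa summit 932 bp downstream of the start, near the edge of the window. Whether other cells in the gate took part in these values was not tested, and peaks do not measure expression.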

How the data were processed

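UBTF peak lists of 4 libraries (wild type and premalignant, 2 each) were compared, with 2 malignant lists read beside them. The authors mapped 50-bp paired reads with bowtie2 to mm9 joined to 1 rDNA copy, removed duplicates (Picard 1.110 per the labels, with CASAVA 1.8.2) and called peaks per library with SPP. The deposited lists precede their test of reproducibility. The authors' score in each list has no scale shared between libraries and was used only to rank peaks, and the deposited q-value (FDR) served only as an alternative filter. No depth is given in the lists.

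Peaks on rDNA were dropped and the best 75000 of each list kept. Gene starts came from GENCODE M1 (22380 protein-coding genes). Members and gene lists were chosen with earlier results of these data known. Named genes were the 15 of each set with the best larger rank, listed genes in a set (up to 12 a list) and the 8 best-ranked genes of each pair with PreM1. Library means were compared by two-sided exact permutation. On simulated lists over 16819 genes, 200 of 200 planted genes of each set were recovered, with 0 false. Python 3.11.15, numpy 2.4.6, pandas 2.3.3, pysam 0.24.0 and matplotlib 3.10.9 were used. P-values measure only the spread between these libraries.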

Additional observations from a re-analysis of the deposited data

How the results depend on the processing

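Alternatives were 9 other settings, each library left out and the replicate number as a block. Of 76 values, 54 kept their direction or stayed within 1.5 times. The filter at an FDR of 0.001 removed no peak used, as the highest FDR of these peaks was 0.000534, in WT1. Values under this filter and with the block could not differ from the main ones, and they count among the 54. The 79 premalignant-only genes became 23 with the best 20000 peaks and 130 with the best summit of each region. The 737 wild-type-only genes became 82 and 237 with the best 20000 and 40000 peaks and 1403 with full lists.

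With the best 20000 peaks, PreM1 held 493 genes not in WT1 and 577 not in WT2, and WT1 and WT2 held 360 and 215 not in PreM1. With the best 40000 peaks the last counts were 952 and 594. With full lists, PreM1 held 898 and 596 genes not in WT1 and WT2, which held 3876 and 5378 not in PreM1. Thus against WT1 the larger side was PreM1 with the best 20000 and 40000 peaks and WT1 otherwise. Against WT2, PreM1 was the smaller side with the best summit of each region (1658 against 1972), region overlap (1921 against 1985) and full lists, and the larger otherwise. The full lists differ in length.

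With 1 library left out, premalignant-only genes ranged from 141 (without WT2) to 1067 (without PreM2), with 167 without WT1 and 362 without PreM1. Wild-type-only genes ranged from 870 (without PreM2) to 2073 (without PreM1), with 1342 without WT1 and 2027 without WT2. Part of this follows from asking for 1 library of a stage in place of both. The difference in percent of genes ranged from -13.5 to -1.09 percentage points with 1 library left out. With all 4 libraries it was -0.143 with the best 20000 peaks, -1.38 with the best 40000 and -12.9 with full lists. Replicate numbers mark no shared animal or day in the labels. With the replicate number as a block the difference was -7.28 (exact sign permutation p = 0.5, the smallest 2 pairs allow).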
